A study of Mus musculus with 40 samples.

Results

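Serpina3f, Serpina4-ps1, Treh and Upp2 are 4 liver transcripts that were selected on their response to sex hormones: both estradiol (E2) and dihydrotestosterone (DHT) had been seen to raise them in gonadectomized mice. All probes annotated to these symbols were taken, which gave 5 probes of 4 genes, out of 23574 probes and 10842 named genes on the array. Upp2 had 2 probes, and the other genes had 1 each. The values that chose them were the differences between each hormone and placebo, so those differences are described here without a test.

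Livers of inbred C57BL/6J mice were measured in 8 groups of 5 animals. In 4 of the groups the animals carried hormone: ovariectomized females with an E2 pellet (OVX + E2) or a DHT pellet (OVX + DHT), and castrated males with an E2 pellet (CAST + E2) or a DHT pellet (CAST + DHT). These were compared with ovariectomized females and castrated males with a placebo pellet (OVX + placebo, CAST + placebo), intact females and intact males. Surgery took place at 8 weeks of age, pellets were implanted at 12 weeks, and all livers were collected at 14 weeks of age following 12 h without food, on a chow with 4% fat. Pellets were built to release over 21 days, with 0.5 mg of E2 for a plasma level of 300 pg/ml or 5 mg of DHT for 1 to 2 ng/ml. The labels name the first hormone as estrogen and the design text as estradiol, and neither says whether intact animals carried a pellet. Whole liver was used, so a change in the number of cells of a type and a change in RNA per cell cannot be told apart.

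Each array gave the log ratio of 1 liver to a common pool of liver RNA. Values below are log2 ratios to that pool, differences are differences of group means on the log2 scale, and levels of different genes cannot be set against each other. The animals' sex labels fitted the data, since Eif2s3y and Kdm5d, which are carried by the Y chromosome, had higher ratios in all 20 males than in any of the 20 females. None of the 200 values of the 5 probes lay at the limit of the value range, although 29 values elsewhere in the table did.

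In mice, many liver genes differ between the sexes, and gonadal steroids act on them in part directly, through receptors in the hepatocyte, and in part through the pattern of growth hormone release. The 4 genes belong to different pathways. Serpina3f is one of the clade A3 serpins, a family of protease inhibitors related to human antichymotrypsin that is expanded in the mouse. Serpina4-ps1 is annotated as a pseudogene related to the serpin kallistatin. Treh encodes trehalase, which splits the sugar trehalose into glucose and is best known from the brush border of kidney and intestine. Upp2 encodes uridine phosphorylase 2, a liver enzyme that cleaves uridine to uracil and ribose phosphate.

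The promoters of 3 of the 4 genes were matched in RefSeq (GRCm38.p6), each as a window of 300 bases with 250 before and 50 after the start of the transcript. They are shown because the genes were chosen for a response to steroid hormones, and capitals mark matches to short motifs on either strand: AGGTCA, a half-site of estrogen and other nuclear receptors, AGAACA, a half-site of androgen and glucocorticoid receptors, and TTCNNNGAA, a STAT site. Of 2 annotated Serpina3f windows, which overlap, the one on chr12:104214294-104214593 (plus strand) is printed and held AGAACA at bases 246 to 251 of the window and the STAT motif, as TTCCTAGAA, at bases 130 to 138. In the other, on chr12:104214383-104214682, the same matches stood at bases 157 to 162 and 41 to 49, so their distance from the start, -5 and -121 in the printed window, was -94 and -210. The Treh window on chr9:44672983-44673282 (plus strand) held AGGTCA on the other strand, as TGACCT, at bases 191 to 196 and 280 to 285. Of 2 annotated Upp2 windows, the one on chr2:58754934-58755233 (plus strand) held AGGTCA at bases 63 to 68 and 91 to 96, and the one on chr2:58567084-58567383 held no match. No printed match overlapped another. Over all 32851 promoter windows of the same length, 16.3% held AGGTCA, 19.0% held AGAACA and 8.3% held the STAT motif, so a match is a description of the sequence only.
Serpina3f: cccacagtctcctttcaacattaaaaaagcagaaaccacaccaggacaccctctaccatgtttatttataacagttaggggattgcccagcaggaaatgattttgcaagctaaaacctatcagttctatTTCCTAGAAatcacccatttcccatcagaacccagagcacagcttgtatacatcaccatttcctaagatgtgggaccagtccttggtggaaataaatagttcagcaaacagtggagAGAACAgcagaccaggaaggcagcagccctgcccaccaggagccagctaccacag
Treh: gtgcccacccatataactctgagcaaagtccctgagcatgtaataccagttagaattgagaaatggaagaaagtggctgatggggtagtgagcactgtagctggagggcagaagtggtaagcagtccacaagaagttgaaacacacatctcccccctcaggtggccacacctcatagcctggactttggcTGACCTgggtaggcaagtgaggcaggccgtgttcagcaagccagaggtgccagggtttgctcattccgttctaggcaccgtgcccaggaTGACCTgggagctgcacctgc
Upp2: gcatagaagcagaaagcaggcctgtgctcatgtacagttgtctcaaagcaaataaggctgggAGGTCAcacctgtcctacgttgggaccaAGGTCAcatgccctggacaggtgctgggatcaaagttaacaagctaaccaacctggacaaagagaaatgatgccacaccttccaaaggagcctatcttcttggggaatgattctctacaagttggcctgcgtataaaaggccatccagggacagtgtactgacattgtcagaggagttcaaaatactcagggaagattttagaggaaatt

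Serpina4-ps1 and Serpina3f lie in the same serpin gene cluster on chromosome 12, in this order with 6 annotated genes between them. Treh lies on chromosome 9 and Upp2 on chromosome 2.

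Serpina4-ps1 had the widest range of the 4 genes. Its values were -1.09, -2.25, 0.35, 0.25 and 0.03 in the OVX + E2 females and 0.17, 1.20, 0.31, -2.88 and 0.67 in the OVX + DHT females, against -2.94, -2.86, -2.70, -3.23 and -2.70 in the OVX + placebo females. All 5 E2 females lay above every placebo female, whereas 1 DHT female lay within the placebo range. In castrated males the values were -1.96, 0.56, -0.12, -1.26 and 1.49 with E2 and 1.91, 0.96, -2.39, 1.87 and -1.50 with DHT, against -3.21, -3.13, -3.37, -3.19 and -3.67 with placebo. Neither hormone group of males overlapped the placebo males. The mean difference from placebo was 2.35 ± 0.69 (SE) for E2 and 2.78 ± 0.69 for DHT in females, and 3.06 ± 0.69 for E2 and 3.48 ± 0.69 for DHT in males, which are 5.09-fold, 6.87-fold, 8.32-fold and 11.2-fold.

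Treh followed the same layout over a smaller range. It lay at -0.45, -0.66, 0.31, 0.26 and 0.83 in OVX + E2 livers and at 0.60, 0.58, 0.50, -0.99 and 0.02 in OVX + DHT livers, against -1.22, -1.47, -1.18, -1.20 and -1.23 in OVX + placebo livers. Every hormone-treated female lay above every placebo female. Among males, Treh was -0.68, 0.53, 0.52, -0.42 and 0.11 with E2 and 0.79, 0.80, -1.07, 1.01 and -0.13 with DHT, against -1.01, -1.33, -1.58, -1.16 and -1.52 with placebo. A DHT male, at -1.07, lay within the placebo range. The differences from placebo were 1.32 ± 0.31 (SE) for E2 and 1.40 ± 0.31 for DHT in females, and 1.33 ± 0.31 for E2 and 1.60 ± 0.31 for DHT in males, or 2.49-fold to 3.03-fold.

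Serpina3f gave 0.41, -0.80, 0.04, 0.08 and -0.07 in OVX + E2 livers and 0.76, 0.63, 0.42, -0.67 and 0.27 in OVX + DHT livers, against -0.84, -1.15, -1.12, -1.24 and -0.98 in OVX + placebo livers. In males it gave -0.23, 0.27, 0.16, 0.03 and 0.62 with E2 and 0.52, 0.01, -0.65, 0.22 and 0.49 with DHT, against -0.88, -0.95, -1.40, -0.68 and -0.996 with placebo. No hormone group overlapped its placebo group. The margins were narrow, with the lowest OVX + E2 female at -0.80 beside the highest OVX + placebo female at -0.84, and the lowest CAST + DHT male at -0.65 beside the highest CAST + placebo male at -0.68. The differences were 1.00 ± 0.24 (SE) and 1.35 ± 0.24 for E2 and DHT in females and 1.15 ± 0.24 and 1.10 ± 0.24 in males, between 2.00-fold and 2.55-fold.

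Upp2 departed from the description that both hormones raise it. Its main probe read 0.04, -0.27, -0.86, -1.32 and -1.06 in OVX + E2 livers and 0.72, 0.40, 0.13, 0.85 and 0.91 in OVX + DHT livers, against -0.99, -0.44, -0.95, -0.51 and -1.71 in OVX + placebo livers. The E2 and placebo females overlapped, with a difference of 0.22 ± 0.30 (SE; 95% interval -0.38 to 0.83), while all DHT females lay above all placebo females, with a difference of 1.52 ± 0.30 (2.87-fold). In castrated males the probe read 0.41, 0.41, 0.53, 1.06 and 0.78 with E2 and 0.73, 0.91, 0.86, 0.56 and 1.49 with DHT, against -1.30, -0.88, -0.19, -0.72 and 0.34 with placebo. Both hormone groups of males were clear of the placebo males, by 1.19 ± 0.30 (2.28-fold) for E2 and 1.46 ± 0.30 (2.75-fold) for DHT. The second Upp2 probe showed no such pattern. Its group means lay between 0.01 and 0.15, and it did not follow the main probe over the 40 arrays (Pearson r = -0.08, n = 40).

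**Figure D1:**
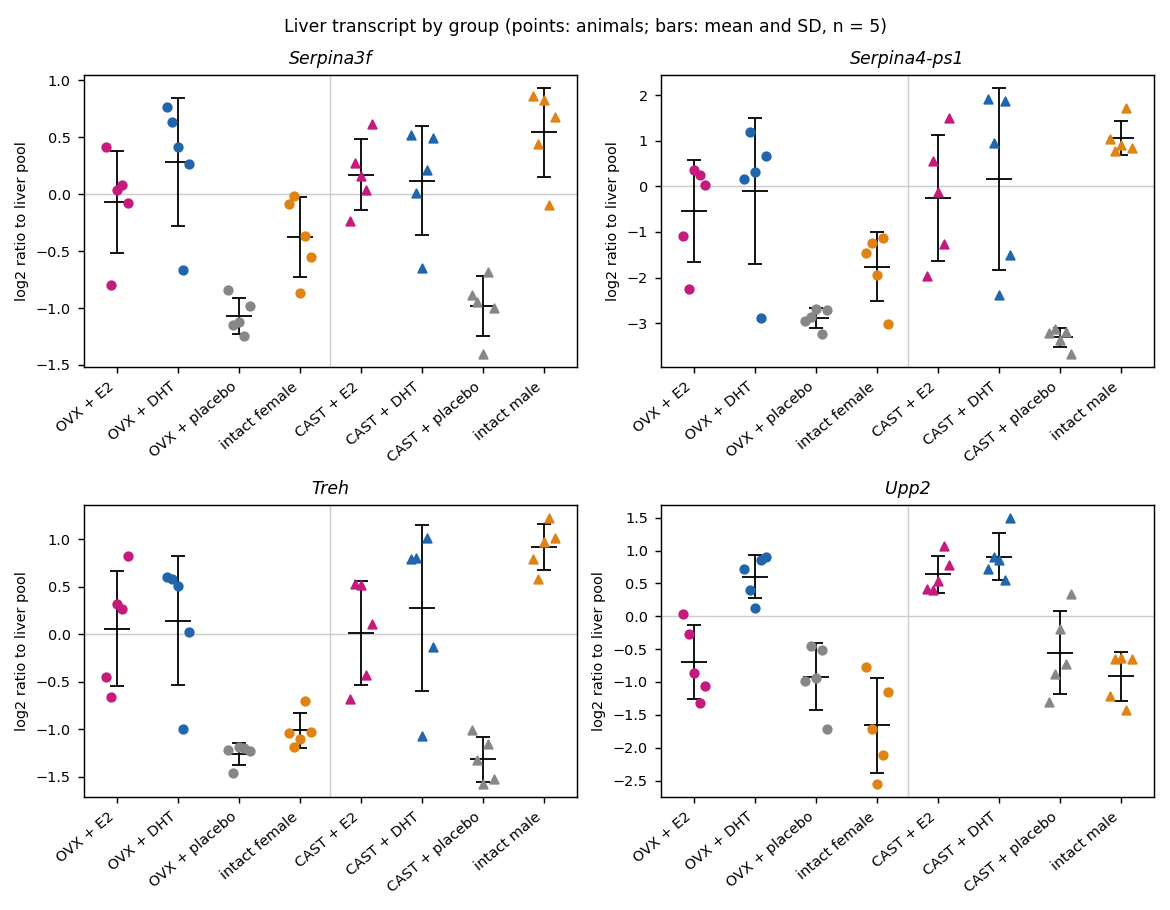
Log2 ratio to the liver pool of the 4 genes (for Upp2, the main probe) in each of the 8 groups; points are animals (circles females, triangles males) and bars the mean and SD (n = 5). For Serpina3f, Serpina4-ps1 and Treh the 2 placebo groups are the lowest and the intact males have the highest mean, while for Upp2 the OVX + E2 females (mean -0.70) lie beside the OVX + placebo females (mean -0.92).

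Counted over the 4 genes, with the main probe for Upp2, hormone and placebo groups did not overlap for 3 with E2 and 3 with DHT in females, and for 4 with E2 and 3 with DHT in males. The share of all probes that lay above placebo without overlap was 0.594% for E2 in females, 1.93% for DHT in females, 1.51% for E2 in males and 2.1% for DHT in males. These counts describe how the genes were chosen. In each sex the 2 hormone contrasts share the same 5 placebo animals.

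The intact groups entered none of those contrasts, so the sex difference between them could be tested. Of the 4 genes, 3 were lower in intact females than in intact males, in limma with Benjamini-Hochberg adjustment over all 23574 probes at a threshold of 0.05. In this comparison 8.69% of all probes passed, and 5.36% passed as lower in females. For Serpina4-ps1 this male bias had been seen in earlier results on these animals and is no independent finding.

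Treh, the trehalase gene, read -1.04, -1.19, -1.11, -0.70 and -1.03 in intact females against 0.80, 0.58, 0.97, 1.22 and 1.02 in intact males. Females and males did not overlap, and the difference of -1.93 ± 0.31 (SE, n = 5 each) was a 3.81-fold lower level in females (limma adjusted p = 2.8e-05). Serpina4-ps1 read -1.46, -1.25, -1.95, -1.14 and -3.01 in intact females against 1.05, 0.78, 0.90, 1.72 and 0.85 in intact males. It also did not overlap, with a difference of -2.82 ± 0.69 (7.07-fold lower in females, limma adjusted p = 0.00582). The share of all probes that were lower in females without overlap was 4.08%.

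Serpina3f read -0.09, -0.01, -0.87, -0.37 and -0.55 in intact females against 0.86, 0.44, 0.83, -0.09 and 0.68 in intact males. The groups met at -0.01 in a female and -0.09 in a male. The difference of -0.92 ± 0.24 (1.89-fold lower in females) passed with a limma adjusted p of 0.00884, and after quantile normalization it was -0.75 with an adjusted p of 0.0541. Upp2 read -0.77, -1.72, -2.55, -2.11 and -1.15 in intact females against -1.21, -0.65, -0.63, -1.43 and -0.66 in intact males. Its difference of -0.75 ± 0.30 (95% interval -1.35 to -0.14) did not pass (limma adjusted p = 0.123). It passed without female 1 (-0.97, adjusted p = 0.0361) and after quantile normalization (-1.14, adjusted p = 0.0333). The second Upp2 probe differed by 0.02 (adjusted p = 0.946).

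Exact two-sided permutation tests of the 5 females against the 5 males gave p = 0.00794 for Serpina4-ps1 and for Treh, the smallest p that 5 against 5 allow, and p = 0.0238 for Serpina3f. Over the 30 such tests of the 5 probes and 6 contrasts, the smallest p came to 0.0595 after Benjamini-Hochberg adjustment.

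Placebo animals, which had lost their gonads, were also set against intact animals of the same sex. These values share the placebo animals with the contrasts that chose the genes and carry no test, and the difference between the sexes was not tested. In males, Serpina4-ps1 differed by -4.37 ± 0.69 (SE) between CAST + placebo and intact livers, 20.7-fold lower after castration. Treh differed by -2.24 ± 0.31 (4.71-fold lower) and Serpina3f by -1.52 ± 0.24 (2.88-fold lower), and for all 3 the castrated males lay below every intact male. The share of all probes that lay lower without overlap was 4.7%.

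In females, OVX + placebo and intact animals overlapped for all 4 genes. Serpina4-ps1 differed by -1.13 ± 0.69, Serpina3f by -0.69 ± 0.24 and Treh by -0.25 ± 0.31 between OVX + placebo and intact females. The share of all probes without overlap was 1.11%. Upp2 stood the other way round, with placebo above intact by 0.74 ± 0.30 in females and by 0.36 ± 0.30 in males.

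Set against the intact animals of the same sex, the hormone-treated livers had higher means in females for all 4 genes, and in males lower means for Serpina3f, Serpina4-ps1 and Treh and higher means for Upp2. These values share the hormone animals with the contrasts that chose the genes and carry no test. Treh differed by 1.07 ± 0.31 between OVX + E2 and intact females and by -0.91 ± 0.31 between CAST + E2 and intact males, both without overlap. With DHT it differed by 1.16 ± 0.31 in females and -0.64 ± 0.31 in males, both with overlap. Serpina3f differed by 0.31 ± 0.24 with E2 and 0.66 ± 0.24 with DHT in females, and by -0.37 ± 0.24 with E2 and -0.43 ± 0.24 with DHT in males, and all 4 comparisons overlapped. Serpina4-ps1 differed by 1.22 ± 0.69 with E2 and 1.65 ± 0.69 with DHT in females, and by -1.32 ± 0.69 with E2 and -0.89 ± 0.69 with DHT in males, and all 4 comparisons overlapped. Upp2 was above every intact male in CAST + E2 livers (1.56 ± 0.30) and CAST + DHT livers (1.82 ± 0.30), and above every intact female in OVX + DHT livers (2.26 ± 0.30, or 4.80-fold), while OVX + E2 and intact females overlapped (0.96 ± 0.30). The shares of all probes without overlap in these comparisons were 2.13% for E2 and 5.4% for DHT in females and 6.23% for E2 and 4.13% for DHT in males.

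Ordered by group mean, Serpina3f, Serpina4-ps1 and Treh shared their ends: the 2 placebo groups lowest, then intact females, then the 4 hormone groups, and intact males highest. Neighbours in this order overlapped everywhere but for Treh, where the intact females (mean -1.01) lay below all CAST + E2 males (mean 0.01). For Upp2 the order ran through intact females (-1.66), OVX + placebo (-0.92), intact males (-0.92), OVX + E2 (-0.70), CAST + placebo (-0.55), OVX + DHT (0.60), CAST + E2 (0.64) and CAST + DHT (0.91), and each overlapped the next.

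E2 and DHT were then compared with each other. This contrast did not choose the genes, but it is the difference between hormone contrasts that did, in the same animals. Choosing genes that both hormones raise favours a small difference here, in females and in males. A lack of difference is therefore no independent result. In females 1 of the 4 genes passed: Upp2 was lower with E2 than with DHT by -1.30 ± 0.30 (SE, n = 5 each; 2.46-fold lower, limma adjusted p = 0.00941), and all E2 females lay below all DHT females. Of all probes, 3.79% passed in this contrast, 1.59% as lower, and 1.85% were lower without overlap. Without OVX + E2 female 36 the difference was -1.14 and no longer passed (adjusted p = 0.0568). The exact permutation p was 0.00794, again the smallest possible with 5 against 5.

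For the other 3 genes no difference between the hormones was found in females. Serpina3f differed by -0.35 (95% interval -0.83 to 0.13, adjusted p = 0.539), Serpina4-ps1 by -0.43 (-1.83 to 0.97, adjusted p = 0.831) and Treh by -0.08 (-0.71 to 0.54, adjusted p = 0.934). These intervals leave room for a difference of more than 1 log2 unit only in Serpina4-ps1, among genes whose choice favoured a small difference.

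In males none of the 4 passed, where 0.708% of all probes did. The E2 minus DHT difference was 0.05 (95% interval -0.43 to 0.53) for Serpina3f, -0.43 (-1.82 to 0.97) for Serpina4-ps1, -0.27 (-0.89 to 0.35) for Treh and -0.27 (-0.87 to 0.34) for Upp2, with limma adjusted p of 0.937, 0.802, 0.713 and 0.7. The difference of -1.03 ± 0.42 for Upp2 between the female and the male E2 minus DHT contrast did not pass (limma adjusted p = 0.386), so the hormone contrast of Upp2 was not shown to differ between the sexes. In that test 0 of 23574 probes passed (0%), and 2671 had an unadjusted p under 0.05. With array weights it passed for Upp2, at -1.29 (adjusted p = 0.0369).

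Sex differences in gonadectomized animals under the same pellet did not pass for any of the 4 genes. These contrasts, under placebo, DHT and E2, use only animals whose values chose the genes, so their p-values are not independent of that choice. Under placebo none of the 4 genes passed (limma adjusted p = 1 for each, where 0.0679% of all probes passed), with differences of OVX minus CAST of -0.08 for Serpina3f, 0.43 for Serpina4-ps1, 0.06 for Treh and -0.37 for Upp2. With DHT the differences were 0.16, -0.28, -0.14 and -0.31 in the same gene order, with adjusted p of 0.792, 0.888, 0.875 and 0.696, where 0.0806% of all probes passed. The fit pools the spread of all groups. For Serpina4-ps1 the SD was 0.22 in each placebo group and 1.99 in CAST + DHT males, so the pooled SE is wide for placebo livers. Its placebo difference had an exact permutation p of 0.0317, or 0.158 after Benjamini-Hochberg adjustment over the exact tests.

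With E2, Upp2 was the gene that stood apart. The OVX + E2 females lay below all CAST + E2 males, by -1.34 ± 0.30 (2.52-fold), at a limma adjusted p of 0.0501, just outside the threshold that 0.136% of all probes passed. A share of 0.759% of all probes was lower in these females without overlap. Without OVX + E2 female 33 the value was -1.52 (adjusted p = 0.0166), and over the leave-one-out fits the adjusted p lay between 0.0166 and 0.236. Over all 19 alternatives the limma adjusted p, with the exact test unadjusted, lay between 0.00155 and 0.382. In 14 of them Upp2 did not pass. Serpina3f (-0.24), Serpina4-ps1 (-0.28) and Treh (0.05) had adjusted p of 0.922, 0.968 and 0.985.

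**Figure D2:**
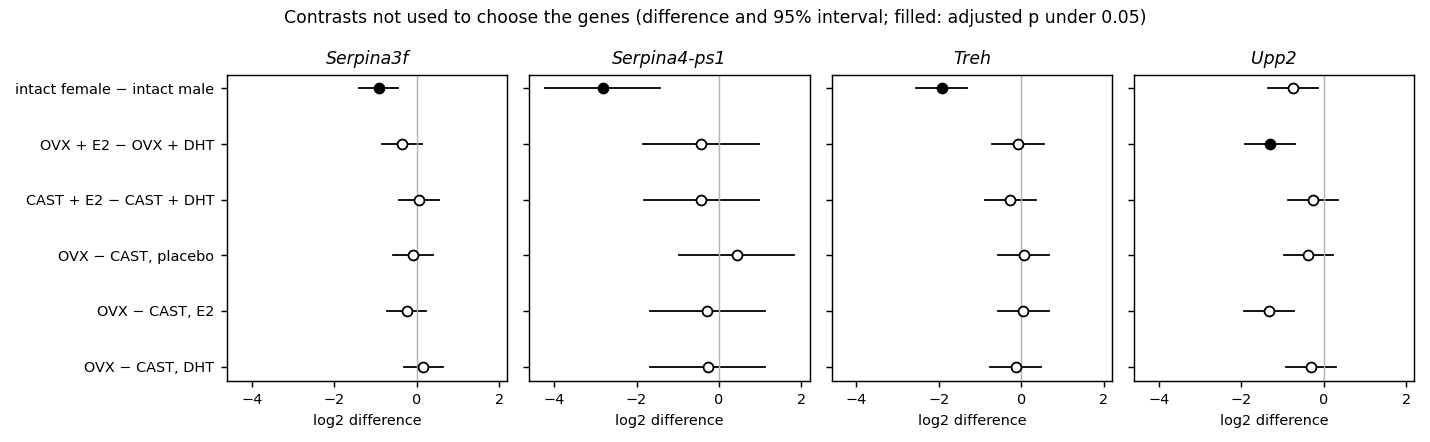
Log2 differences of group means with 95% intervals for the 6 contrasts that did not choose the genes (horizontal axis, log2; the first-named group minus the second); filled points passed an adjusted p of 0.05. Serpina3f, Serpina4-ps1 and Treh pass between intact females and males, and Upp2 passes between E2 and DHT in ovariectomized females. All contrasts but the intact one use animals whose values chose the genes.

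Some clock genes, and most of the macrophage markers examined, also differed between OVX + E2 and OVX + DHT livers. In this contrast 3.79% of all probes passed, 1.59% as lower. Of 11 measured clock repressor and output genes 3 were lower with E2: Usp2, a deubiquitinase with daily rhythm (-0.61, adjusted p = 0.00702), the clock repressor Per2 (-1.06, adjusted p = 0.0353) and Nr1d2, which encodes REV-ERB beta (-0.64, adjusted p = 0.0247). Of 5 measured genes of the activator arm 1 was higher: Arntl, which encodes BMAL1, by 0.91 (adjusted p = 0.043). A clock index, the mean of the first list minus the mean of the second, lay between -0.32 and 0.30 in OVX + E2 livers and between 0.35 and 0.78 in OVX + DHT livers, without overlap. Hormone and clock index therefore cannot be told apart in this contrast. With the index as a covariate the Upp2 difference of this contrast was -0.64 (limma adjusted p = 0.505). The limit also applies to other Upp2 differences given above. OVX + placebo livers had an index of at most 0.32 and did not overlap OVX + DHT livers. Intact females reached at most -0.59 and intact males -0.23, below every hormone-treated animal of the same sex. Intact females also lay below every OVX + placebo female.

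Over all 40 livers Upp2 varied with the index (Pearson r = 0.84 over 40 arrays, and 0.60 after each group's mean was removed). The index had r of -0.03 with Serpina3f (within groups -0.41), 0.01 with Serpina4-ps1 (within groups -0.29) and 0.01 with Treh (within groups -0.47). The arrays of a group share its treatment, and the labels give no hour of death. Intact animals had the lowest index, with group means of -0.76 in females and -0.54 in males, and the DHT groups the highest, at 0.50 in females and 0.47 in males.

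**Figure D3:**
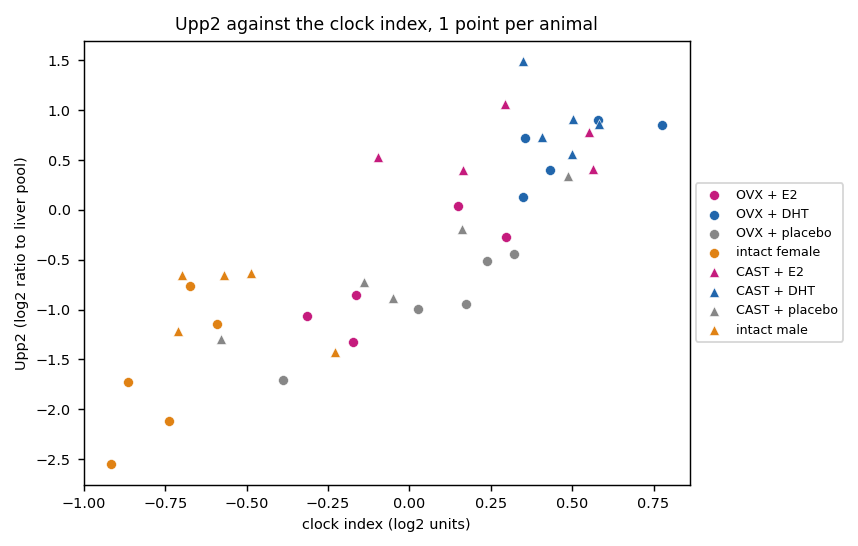
Upp2 (main probe, log2 ratio to the liver pool) against the clock index (mean of clock repressor and output genes minus mean of activator arm genes, log2 units), 1 point per animal, coloured by treatment with circles for females and triangles for males. The DHT livers lie at the upper right with an index of at least 0.35, and the intact livers lie at the left with group means of -0.76 and -0.54.

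Of 11 measured Kupffer cell and macrophage markers 10 were higher in OVX + E2 than in OVX + DHT livers, where 3.79% of all probes passed in either direction, among them the receptor gene Csf1r (1.35, adjusted p = 0.00177), the Kupffer lectin Clec4f (0.86, adjusted p = 0.00216) and the scavenger receptor Marco (2.49, adjusted p = 0.0128). The mean over the 11 markers lay between -0.29 and 1.69 in OVX + E2 livers and between -0.81 and -0.32 in OVX + DHT livers, without overlap. Their part in the Upp2 difference was not tested.

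Within the hormone groups, animals differed far more in Serpina4-ps1 and Treh than placebo animals did. The SD averaged 1.52 over the 4 hormone groups and 0.218 over the 2 placebo groups for Serpina4-ps1, a ratio of 6.98. For Treh the SDs were 0.677 and 0.179 (ratio 3.78), and for Serpina3f 0.451 and 0.210 (ratio 2.14). The median ratio over all probes was 1.03, and 4.47% of probes had a ratio above 2. Upp2 ran the other way, with 0.382 in hormone groups and 0.571 in placebo groups (ratio 0.668).

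The lowest value of a hormone group came from the same animal for Serpina4-ps1, Treh and Serpina3f. In each of the 4 hormone groups the animal lowest in Serpina4-ps1 was also the lowest in Treh and in Serpina3f: female 34 with E2, female 53 with DHT, male 41 with E2 and male 61 with DHT. In none of the 4 groups was it the lowest in Upp2. Of all probes, 0.505% had these same 4 animals as their lowest. Beyond the lowest animal Serpina3f went its own way. OVX + E2 female 33 was low in Serpina4-ps1 (-1.09) and Treh (-0.45) but the highest of its group in Serpina3f (0.41). CAST + DHT male 63 was low in Serpina4-ps1 (-1.50) but near the top of its group in Serpina3f (0.49).

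Female 53, treated with DHT, read -2.88 for Serpina4-ps1, -0.99 for Treh and -0.67 for Serpina3f, while the other 4 females of its group had 0.17 to 1.20 for Serpina4-ps1. Its Upp2 value was 0.85, within the range of that group. Male 61, also with DHT, read -2.39, -1.07 and -0.65 for the same 3 genes and 0.86 for Upp2. For Serpina4-ps1 female 53 lay within the range of the OVX + placebo females, and male 61 lay above the highest CAST + placebo male at -3.13. Without female 53 the DHT minus placebo difference of Serpina4-ps1 in females was 3.47 in place of 2.78.

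Across the 40 arrays, Serpina4-ps1 and Treh correlated with r = 0.94, and with r = 0.85 after group means were removed. Serpina3f correlated with Serpina4-ps1 (0.86, and 0.60 within groups) and with Treh (0.84, and 0.54 within groups). Upp2 had r of 0.33 with Serpina3f, 0.22 with Serpina4-ps1 and 0.24 with Treh, and within groups 0.04, -0.35 and -0.40. These are descriptions over 40 arrays that share the pool and, by group, the treatment.

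**Figure D4:**
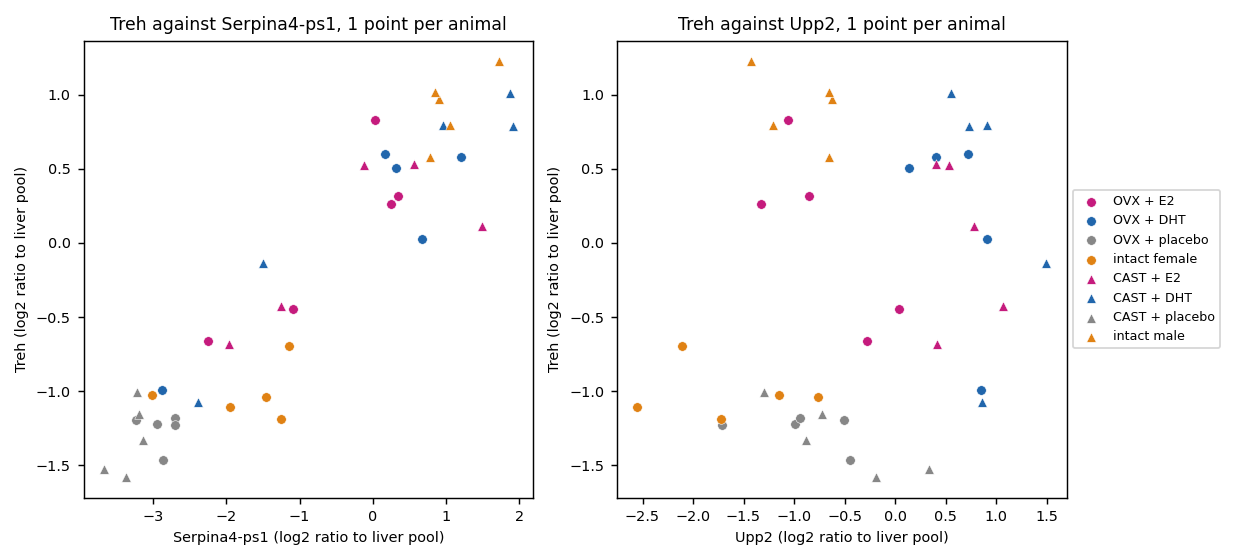
Treh against Serpina4-ps1 (left) and against Upp2 (right), both axes as log2 ratios to the liver pool, 1 point per animal, coloured by treatment with circles for females and triangles for males. Treh and Serpina4-ps1 lie along a line (r = 0.94) on which some hormone-treated animals reach the placebo animals, and Treh and Upp2 do not (r = 0.24).

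Serpina4-ps1 and Treh were nearer to each other (r = 0.94) than to any other named gene. Apart from the 4 genes themselves, the named genes whose values over the 40 arrays were most like these were found by Pearson correlation. Egfr, the epidermal growth factor receptor, came first for Serpina3f (r = 0.92, within groups 0.82), for Serpina4-ps1 (0.90, within groups 0.71) and for Treh (0.90, within groups 0.71). Next for Serpina3f came the chromatin reader gene Spin1 (0.87), the complement gene C9 (0.84), the phosphatase family gene Mtmr1 (0.84) and the carboxylesterase gene Ces3b (0.83). After Egfr, Serpina4-ps1 was nearest to Cd248, which encodes endosialin (0.85), the aldehyde oxidase genes Aox3 (0.83) and Aox1 (0.82), and the peptidase gene Dpp7 (0.80). Treh was nearest to Cd248 (0.88), the oxysterol hydroxylase gene Cyp7b1 (0.84), Aox3 (0.83) and Omd (0.82). Upp2 had other neighbours: Mtss1 (0.88), Usp2 (0.86), Per2 (0.85), the replication licensing inhibitor gene Gmnn (0.81) and the fructosamine kinase gene Fn3k (0.80). The second Upp2 probe reached 0.62 at most, with the desmosomal gene Dsg1b.

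Egfr, which was picked for its correlation with Serpina3f, Serpina4-ps1 and Treh, was low in the same animals. It read -1.20 in female 53, against 0.46 to 0.91 in the other OVX + DHT females, and -0.69 in male 61, against 0.53 to 0.90 in the other CAST + DHT males. It was also lowest in female 34 with E2 (-1.15) and in male 41 with E2 (-0.36). Cd248 was lowest in the same animal as Serpina4-ps1 in 3 of the 4 hormone groups, and Cyp7b1 in all 4. In the OVX + E2 group Cyp7b1 read -2.57 and -2.92 in females 33 and 34, against 0.84 to 1.35 in the other 3.

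Lists of related genes were examined to see how widely these patterns held. The male-biased list was put together for male bias, so its sex difference is no finding of its own. Of 16 measured male-biased liver genes, 15 were lower in intact females than in intact males (median difference -2.12, against 0.01 over all probes), and none passed as higher. With DHT 7 of the 16 rose in females (median 1.19) and 10 in males (median 1.21), and none fell. With E2 none passed in females (median -0.03) and 2 rose in males (median 0.33), where the share of all probes that passed was 0.632% for E2 and 1.15% for DHT in females and 1.18% for E2 and 3.47% for DHT in males. The 2 were Egfr and Cyp7b1 (2.85, adjusted p = 0.0289). Both were among the genes best correlated with Serpina3f, Serpina4-ps1 or Treh, which were chosen for rising in these contrasts. Their differences from placebo are therefore no independent support. Egfr had differences from placebo of 1.44 for DHT in females (adjusted p = 0.00885), 2.00 for DHT in males (adjusted p = 0.000163), 1.71 for E2 in males (adjusted p = 0.00269) and 0.74 for E2 in females, which did not pass (adjusted p = 0.295).

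Among 19 other measured serpins, 2 were higher and 2 lower in intact females than in intact males, where 8.69% of all probes passed in either direction and 5.36% as lower. The corticosteroid-binding globulin gene Serpina6 (1.42, adjusted p = 0.00092) and Serpini2 (0.34, adjusted p = 0.00504) were higher, and Serpina12, which encodes vaspin (-0.48, adjusted p = 0.0474), and the antitrypsin gene Serpina1a (-0.30, adjusted p = 0.0157) were lower. Serpina12, which lies in the cluster beside Serpina4-ps1 with 1 annotated gene between them, rose with E2 in females by 0.76 (adjusted p = 0.015). Serpina7, the thyroxine-binding globulin gene, fell with E2 in females (-1.13, adjusted p = 0.0225) and males (-0.96, adjusted p = 0.045) and with DHT in males (-0.95, adjusted p = 0.0243), and Serpina6 fell with E2 in females (-1.48, adjusted p = 0.0115). No other serpin passed in the hormone contrasts, where 0.632% to 3.47% of all probes passed, and the list medians lay between 0.03 and 0.13. Short of the threshold, Serpina11 of the same cluster was higher than with placebo in each hormone contrast, by 0.37 to 0.53. Over the 40 arrays it correlated with Serpina3f (r = 0.82) and Serpina4-ps1 (r = 0.77). Serpina3n, also of the cluster, had r of -0.29 and -0.39 with the same genes.

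Of 13 measured disaccharidase, glucosidase and glycogen breakdown genes, 2 were lower and 1 higher in intact females, again against 8.69% of all probes. The brush border enzyme gene Lct, which encodes lactase, was lower (-0.62, adjusted p = 0.000104), as was Ganc (-0.19, adjusted p = 0.0271), while the glucose-6-phosphate transporter gene Slc37a4 was higher by 0.54 (adjusted p = 0.0161). Lct rose with DHT, by 0.44 in females (adjusted p = 0.0306) and 0.48 in males (adjusted p = 0.00788), and Gba2 rose with DHT in males by 0.41 (adjusted p = 0.00578). None of the 13 passed with E2. Among 8 measured kidney and intestine markers, none passed in the 4 hormone contrasts, where 0.632% to 3.47% of all probes passed.

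The 23 measured genes of uridine and pyrimidine salvage and breakdown gave few calls. In intact females 3 of them passed, a share near the 8.69% of all probes: the dihydropyrimidinase gene Dpys (0.59, adjusted p = 0.00112), Pgm2 (0.35, adjusted p = 0.000804) and the uridine-cytidine kinase gene Uck1 (0.53, adjusted p = 0.0271), all higher than in intact males. Upp1, the other uridine phosphorylase gene, was lower in OVX + E2 than in OVX + DHT livers (-0.33, adjusted p = 0.0111), and lower than in OVX + placebo livers (-0.32, adjusted p = 0.0481). In the E2 and DHT comparison of females the nucleotidase gene Nt5c (0.51, adjusted p = 0.00563) and Cad (0.42, adjusted p = 0.0336), which starts pyrimidine synthesis, were higher with E2. The thymidine kinase gene Tk1 rose in castrated males with E2 (0.98, adjusted p = 0.00238) and DHT (0.86, adjusted p = 0.00137), and the thymidine phosphorylase gene Tymp fell with E2 in males (-0.48, adjusted p = 0.0463) and with DHT in females (-0.63, adjusted p = 0.00662). Of all probes, 3.79% passed for E2 against DHT in females. Against placebo, 0.632% passed with E2 and 1.15% with DHT in females, and 1.18% with E2 and 3.47% with DHT in males.

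Of 21 measured acute phase genes 1 rose with E2 in females, Itih3, a chain of the inter-alpha-trypsin inhibitor (0.80, adjusted p = 0.0492), and none passed in the other 3 hormone contrasts. Of all probes, 0.632% passed with E2 and 1.15% with DHT in females, and 1.18% with E2 and 3.47% with DHT in males. With shares this low, few calls say little about a list of this size. None of 6 measured hepatocyte markers passed in any hormone contrast against placebo.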

How the data were processed

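Liver RNA in Cy5 was hybridized against a common pool in Cy3, 1 array per animal, without dye swaps, per the labels. The deposited values are log10 ratios. Their background correction and normalization are not given in the sources used here, and no scanner intensities were used. Whether low ratios, such as those of Serpina4-ps1 in placebo livers, lay near background could therefore not be checked. Eif2s3y set the base of the logarithm: its male mean was 2.00-fold over the pool if read as log10, against 1.22-fold as log2. Values were converted to log2. A model of 8 group means on all 40 arrays was fitted in limma 3.58.1 (R 4.3.3; lmFit, eBayes; 32 residual degrees of freedom), two-sided, with Benjamini-Hochberg adjustment over 23574 probes and a threshold of 0.05. All groups share the spread estimate of a gene, so its SE is the same for groups of unlike spread. The labels give no batch or date, and nothing on litters or cages.

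Symbols came from the platform annotation, checked against the mouse RefSeq table (12662 named probes). For other genes the probe with the largest SD stood for the gene. The genes and lists were chosen with earlier results of these data known. Named beside the 4 genes were their 5 best correlated genes, up to 4 genes of each list with the smallest adjusted p, Cyp7b1, and Eif2s3y and Kdm5d for sex. Alternatives were array centring, quantile normalization, fits on the compared groups only, array weights, exact tests and the clock index as a covariate. Others were a robust eBayes fit, values at the limit of the value range set to missing, leaving out each animal, and leaving out females 33 and 34. The test of the Upp2 contrast between the sexes was added after the data were seen. The fit was tested on simulated data.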

Additional observations from a re-analysis of the deposited data

Results flagged for a closer look

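Each of the 40 sets of 5 values (5 probes in 8 groups) was searched for an animal set apart from the others by Dixon's test, and 5 were found, where chance flags about 1 in 20. Serpina4-ps1 was far below the other OVX + DHT females in female 53 (-2.88) and far above the other intact males in male 11 (1.72). Treh was below the other OVX + placebo females in female 17 (-1.47). The second Upp2 probe was above the rest of its group in CAST + E2 male 43 (0.47) and OVX + DHT female 54 (0.78). Without female 53 the DHT minus placebo difference of Serpina4-ps1 in females was 3.47, against 2.78 with it, and between OVX and CAST under DHT the difference changed sign for Serpina4-ps1 (0.42, against -0.28 with it) and Treh (0.15, against -0.14). The second Upp2 probe changed sign without female 54 between E2 and DHT in females (0.092) and between OVX and CAST under DHT (-0.010), without male 43 between OVX and CAST under E2 (0.060) and without female 17 between OVX and CAST under placebo (0.018). None of these differences between OVX and CAST, or of the second Upp2 probe, passed with or without the animal.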

How the results depend on the processing

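No paired analysis was possible because each animal number occurs in 1 group. Serpina4-ps1 and Treh kept their lower level in intact females, past the threshold, under all 18 alternatives (adjusted p of 0.000452 to 0.0392 and 1.36e-06 to 0.00794, the exact tests unadjusted). Array weights give noisier arrays less weight.

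After quantile normalization Serpina3f between intact females and males was -0.75 and no longer passed, Upp2 was -1.14 and passed, Treh in OVX + placebo against intact females was -0.42, and Serpina4-ps1 in CAST + placebo against intact males was -4.88. With the compared groups alone the probes passing were 1249 between intact females and males (2048 with all groups), 270 for E2 against DHT in females (893) and 8 in males (167), 31 between OVX and CAST under placebo (16) and 13 under E2 (32). With array weights they were 5443, 3075, 1877, 39 and 77 in the same order, 1310 between OVX and CAST under DHT (19) and 1712 for the difference of E2 minus DHT between the sexes (0). With these weights Upp2 passed between OVX and CAST under E2 (-1.49) and in the difference between the sexes (-1.29). The clock index as a covariate left 159 probes for E2 against DHT in females, and Upp2 at -0.64, not past the threshold. Without females 33 and 34, which had low Cyp7b1, 1982 probes passed for E2 against DHT in females, 599 between OVX and CAST under E2 and 371 in the difference between the sexes, and Upp2 between OVX and CAST under E2 was -1.72 and passed. Exact tests gave an unadjusted p under 0.05 for Upp2 between OVX and CAST under E2 (-1.34) and Serpina4-ps1 between OVX and CAST under placebo (0.43). The causes were not tested.

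Sign changes occurred only where neither value passed. Quantile normalization gave -0.16 for Treh and 0.026 for the second Upp2 probe between OVX and CAST under placebo. Array weights gave 0.17 for Treh between E2 and DHT in females, -0.077 for Serpina3f between E2 and DHT in males, -0.013 for Treh and 0.028 for the second Upp2 probe between OVX and CAST under placebo, and 0.024 for that probe under E2. The clock covariate gave -0.059 for Serpina3f between E2 and DHT in males and -0.28 for Treh between OVX and CAST under E2. Without females 33 and 34 Serpina4-ps1 and Treh were 0.32 and 0.32 between E2 and DHT in females, and Serpina4-ps1 was 0.47 between OVX and CAST under E2.

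Leaving out 1 animal at a time, E2 against DHT in females gave 281 (without female 36) to 1523 probes (without female 34), and in males 48 (without male 59) to 493 (without male 63). OVX against CAST under E2 gave 19 (without female 36) to 47 (without female 34), and the difference between the sexes 0 to 6. Upp2 ranged from -0.97 (without female 1, where it passed) to -0.52 between intact females and males, from -1.48 to -1.14 (without female 36, where it no longer passed) between E2 and DHT in females, and from -1.52 (without female 33) to -1.18 (without female 36) between OVX and CAST under E2. Differences that changed sign ranged as follows. In E2 against DHT, Treh in females ran from -0.37 to 0.096, Serpina3f in males from -0.14 to 0.15 and Serpina4-ps1 in males from -1.07 to 0.010. In OVX against CAST, Treh ran from -0.0046 to 0.14 under placebo, from -0.14 to 0.23 under E2 and from -0.47 to 0.15 under DHT, Serpina4-ps1 from -0.71 to 0.15 under E2 and from -0.92 to 0.42 under DHT, and Serpina3f from -0.028 to 0.40 under DHT. The second Upp2 probe ran from -0.031 to 0.058 between intact females and males, from -0.13 to 0.092 between E2 and DHT in females, and between OVX and CAST from -0.058 to 0.041 under placebo, from -0.090 to 0.060 under E2 and from -0.010 to 0.20 under DHT.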
